A study of Mus musculus with 3 samples.

Results

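Within the BMDMs exposed to borrelial lipoproteins for 4 hours, the cells with the weakest interferon response were set against the cells with the strongest. Each cell of the LP4 library was scored by the share of its UMIs (unique molecular identifiers, each standing for 1 captured transcript) that fell in the 6 genes *Ifit1*, *Ifit2*, *Ifit3*, *Rsad2*, *Isg15* and *Cmpk2*. The 459 cells with the lowest and the 459 cells with the highest scores, 10% each of 4597 LP4 cells, are called weak and strong responders. These 918 cells come from the 5039 LP4 barcodes and the 16281 barcodes of the 3 libraries.

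BMDMs are macrophages grown from bone marrow, here of female C3H/HeN mice aged 6 to 8 weeks, in medium conditioned by L929 cells, a fibroblast line that secretes the macrophage growth factor M-CSF. The Ctrl cells received PBS, and the LP1 and LP4 cells received lipoproteins purified from *Borrelia burgdorferi* (*Bb*LP, 1 µg/mL) for 1 and 4 hours. Treated wells were pooled before capture, so each condition is 1 droplet library of 3′ transcript ends, and the wells within it cannot be told apart. Cells of 1 library are not replicates, so no test was made between weak and strong responders, and every interval below covers counting error only.

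Type I interferons are secreted proteins that bind the receptor pair IFNAR1 and IFNAR2. The receptor-bound kinases JAK1 and TYK2 then activate transcription factors, among them STAT2 with IRF9, that bind a DNA element called ISRE in front of interferon-stimulated genes. In macrophages, *Ifnb1* is transcribed after pattern recognition receptors sense microbial products, and the secreted protein acts on the same cell and on its neighbours. Bacterial lipoproteins are recognised by TLR2 with its partners TLR1 or TLR6, and MYD88 passes that signal to NF-kB.

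The score spread as 1 broad distribution in LP4 rather than in separate groups of cells. Its median was 0.902% of a cell's UMIs, with quartiles at 0.486% and 1.36% and a highest value of 6.05%. The weak responders ended at 0.2105%, and the next cell had 0.2109%. At the other end, the last cell outside had 1.8975% and the first strong responder 1.8977%, so both limits cut through a continuous range. In Ctrl, 96.6% of 5928 cells of the same limits stood at or under the weak limit (exact binomial 95% interval 96.1 to 97.0) and 11 cells reached the strong limit. In LP1 these were 97.2% of 5032 cells (96.7 to 97.6) and 8 cells. The 28 LP4 cells rich in *S100a8* and *S100a9*, neutrophil genes, had a median score of 0.0274%, against 0.117% in weak responders. Median depths were 9262 UMIs in the former and 10784 in the latter. *Isg15* gave 51.3% and *Rsad2* 21.1% of the score UMIs of the *S100a8*-rich cells. These cells hold RNA of their own, so their score is no measure of free RNA in the droplets alone. The part of free RNA in the low scores was not tested.

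**Figure D1:**
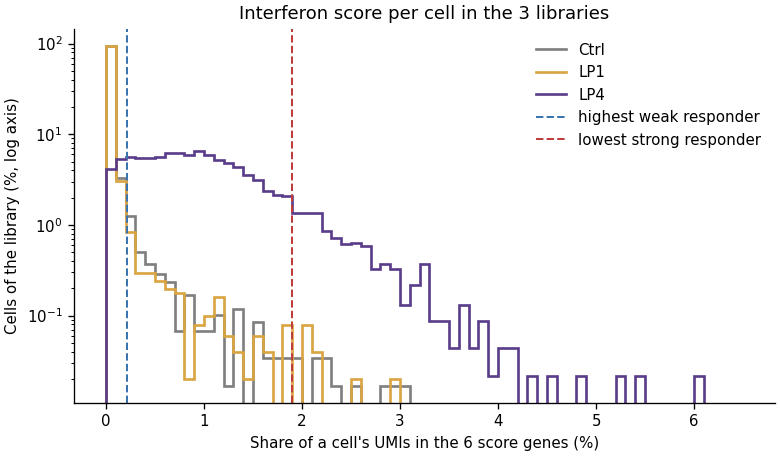
Share of each cell's UMIs in the 6 score genes (x axis, %) against the percent of the library's cells in each bin (y axis, log scale) for Ctrl, LP1 and LP4. The dashed lines mark the highest weak responder (0.2105%) and the lowest strong responder (1.8977%). The LP4 curve is 1 broad hump that spans both limits, while Ctrl and LP1 pile up at the left.

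Strong responders held somewhat fewer UMIs and genes per cell than weak responders, and both held fewer UMIs than the cells between them (median 12331). The median cell held 10784 UMIs and 3168 genes in weak responders and 9772 UMIs and 2818 genes in strong responders. Mitochondrial transcripts made up a median of 3.22% and 2.91% of the UMIs, and ribosomal protein transcripts 8.18% and 7.50%. Of the weak responders, 1 carried a barcode that was also kept in another library, and none of the strong responders did.

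The score genes chose the cells, so their values describe the choice and are no finding. As UMIs per 1000000 UMIs of all genes (CPM), *Rsad2*, which encodes the antiviral enzyme viperin, stood at 128 in Ctrl, 107 in LP1, 381 in weak and 12254 in strong responders. *Ifit1*, which binds viral RNA caps, stood at 38.9 in Ctrl, 32.1 in LP1, 284 in weak and 5134 in strong responders. *Isg15*, a ubiquitin-like modifier, had the smallest difference of the 6, with 68.5 CPM in Ctrl, 85.6 in LP1, 285 in weak and 1568 in strong responders. *Isg15* gave 25% of the score UMIs in weak responders and 6.45% in strong responders, and *Rsad2* gave 33.4% and 50.4%. When the UMIs of every cell were split at random in 2 parts, cells were chosen on 1 part and genes counted in the other. The log2 ratio of strong over weak was then 4.78 for *Rsad2* (95% interval 4.70 to 4.87) and 2.35 for *Isg15* (2.24 to 2.46). These ratios too describe the choice of cells. Of the weak responders 91.9% and of the strong responders 90.0% were chosen again. The main choice used all UMIs, that part among them, so this overlap is high in part by construction.

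For all other genes, CPM below means UMIs per 1000000 UMIs outside the score genes, summed over the cells of a group (5600732 UMIs in weak and 4696209 in strong responders). Of 5629 genes with at least 20 CPM in both groups together, 270 (4.8%) were at least 2 times higher in strong responders and 249 (4.42%) at least 2 times lower. The median log2 ratio over these genes was -0.22, with quartiles at -0.48 and 0.08, and single genes are read against that median. With TMM scaling, each log2 ratio rises by 0.32, the median of all genes becomes 0.10, and the counts become 432 higher and 94 lower. A ratio between -0.32 and 0 therefore changes sign with the scaling. Ribosomal protein genes had a median of -0.13, and none of the 80 tested passed 2-fold in either direction.

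The other interferon-stimulated genes were higher in strong responders too, though none of them had entered the score. Of 85 genes on 6 lists (guanylate-binding proteins, immunity-related GTPases, Ifi200 genes, Schlafen genes, other IFIT and OAS genes, antiviral effectors), 72 reached 20 CPM. Of these 72, 51 were at least 2 times higher in strong responders and 0 at least 2 times lower, beside the 4.8% and 4.42% of all genes. Over the 78 members with at least 20 UMIs the median log2 ratio was 1.41, and 8 of the 78 passed that limit through the strong responders. Among the 46 members with at least 20 CPM in Ctrl, which took no part in the choice of cells, 26 were at least 2 times higher and 0 lower, with a median of 1.15, beside 2.95% and 6.53% of all genes so chosen and a median of -0.25. *Ifi27* was the only one of the 78 below 0, with a log2 ratio of -0.64. With cells chosen and genes counted in separate parts of the UMIs the median was 1.33, and with the ends taken inside each of 4 clusters of cells, built without interferon genes, it was 1.27 (1.14 to 1.48 in the single clusters).

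**Figure D2:**
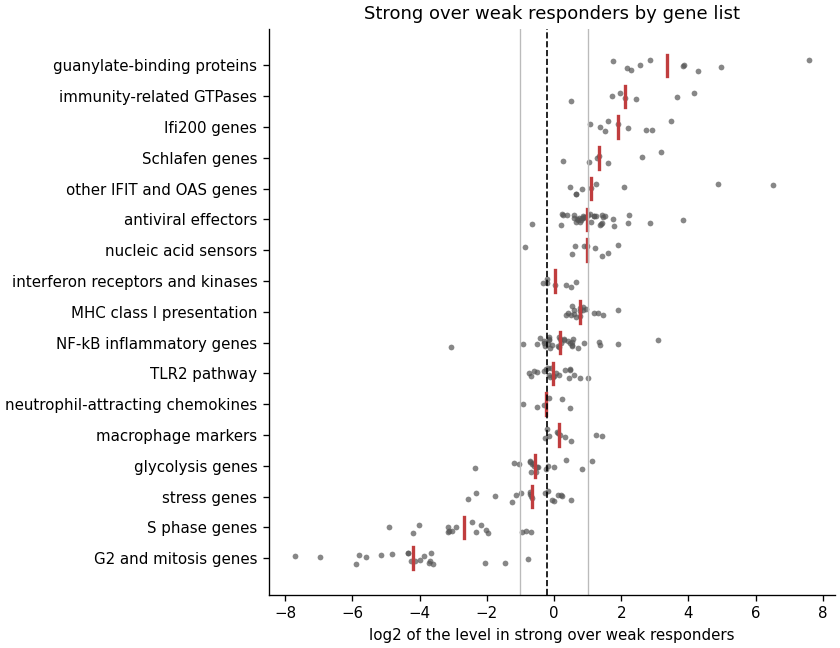
Log2 ratio of strong over weak responders (x axis) for every measured member of 17 gene lists (rows). Each point is 1 gene, the red bar is the list's median, the dashed line is the median of all genes tested (-0.22) and the grey lines mark 2-fold. Guanylate-binding proteins lie farthest to the right, NF-kB, TLR2 pathway and macrophage genes lie around the dashed line and 0, and cell cycle genes lie to the left.

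The guanylate-binding proteins, GTPases that attack the vacuoles of intracellular microbes, had the highest median of these lists, 3.35. Of the 11 members 8 reached 20 CPM, and all 8 were at least 2 times higher in strong responders, beside 4.8% of all genes. Of the 10 with at least 20 UMIs, 5 had fewer than that in weak responders and so passed through the group where they are high, and the median rests on them. Among the 3 members with at least 20 CPM in Ctrl, all 3 were higher, with a median of 2.16. *Gbp4* (ENSMUSG00000079363, chromosome 5, 105115767 to 105139586, minus strand, GRCm38) had the largest log2 ratio of all named genes, 7.60 (95% interval 6.24 to 9.48). It stood at 1.55 CPM in Ctrl, 1.2 in LP1, 0.714 in weak and 138 in strong responders. Only 4 weak responders held a UMI of *Gbp4*, against 190 strong responders, so the weak cells showed no more of it than Ctrl did. *Gbp2* and *Gbp5* behaved otherwise: *Gbp2* went from 28.6 CPM in Ctrl to 96.6 in weak and 568 in strong responders, and *Gbp5* from 26 to 369 and 1654. Guanylate-binding protein genes are close paralogs, and reads shared between them could have been assigned to the wrong member or dropped.

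The immunity-related GTPases, a second family that acts on pathogen vacuoles, had a median of 2.11. *Iigp1* stood at 3.53 CPM in Ctrl, 3.61 in LP1, 10.9 in weak and 195 in strong responders, a log2 ratio of 4.16 (3.79 to 4.56). *Irgm1*, a regulator of this family, had a log2 ratio of 1.95 and *Igtp* one of 2.11. The Ifi200 genes, DNA-binding proteins of which AIM2 starts an inflammasome, had a median of 1.89. The 9 members that reached 20 CPM were at least 2 times higher, beside 4.8% of all genes. *Ifi205* stood at 2.68 CPM in Ctrl, 17.5 in weak and 132 in strong responders. *Ifi209* stood at 7.60, 42.0 and 280, and *Aim2* itself at 78.5, 61.1 and 227. The weak responders thus held more *Ifi205* and *Ifi209* than Ctrl but not more *Aim2*.

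Among the other IFIT and OAS genes the members split. *Ifit1bl1* had a log2 ratio of 6.51 (5.90 to 7.18), with 9.44 CPM in Ctrl, 3.93 in weak and 357 in strong responders, and *Ifit3b* one of 4.89 (4.40 to 5.42), with 7.06, 6.25 and 185. Both belong to the family of the score genes *Ifit1* and *Ifit3* and lie in the same region of chromosome 19 (34592891 to 34601956, minus strand, and 34607970 to 34613401, plus strand). Their counts may therefore hold reads of the score genes, which was not tested. *Ifit1bl2*, another member, had 0.48, with 4.29 CPM in weak and 5.96 in strong responders. The OAS family includes enzymes that make the 2′-5′ oligoadenylates that switch on an RNA-degrading enzyme, though not every member does. The OAS genes differed less, from 0.66 for *Oas1a* to 1.24 for *Oasl2* and 2.09 for *Oasl1*. *Oas1a* and *Oas3*, at 0.66 and 0.67, and *Oas2*, at 52.9 CPM in weak and 94.1 in strong responders, did not reach 2-fold.

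The Schlafen genes had a median of 1.33, from 0.27 for *Slfn2* to 3.19 for *Slfn4*. Of 35 antiviral effectors that reached 20 CPM, 18 were at least 2 times higher and 0 lower, beside 4.8% and 4.42% of all genes. *Ddx60*, a helicase that promotes RNA sensing, stood at 29.0 CPM in Ctrl, 23.1 in LP1, 87.0 in weak and 636 in strong responders, a log2 ratio of 2.87 (2.73 to 3.01). *Samhd1*, which depletes nucleotides that viruses need, had 1.76 and *Rnf213*, a ubiquitin ligase, 1.2. *Ifitm3*, which blocks fusion of viral membranes, had 0.65 and *Ifi27l2a* 0.25, and both stood at no more CPM in weak responders than in Ctrl.

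**Figure D3:**
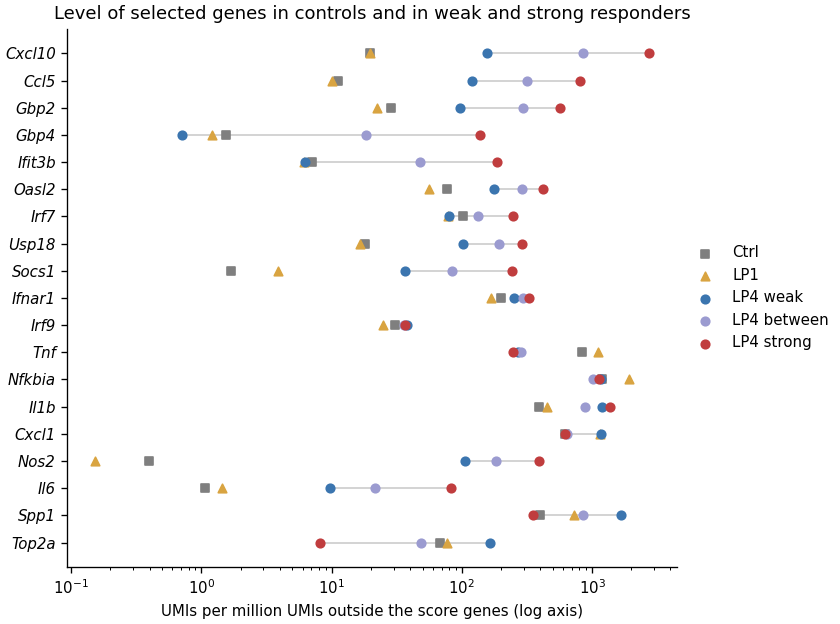
Level of 19 genes (rows) as UMIs per 1000000 UMIs outside the score genes (x axis, log scale) in Ctrl, LP1 and in the weak, intermediate and strong responders of LP4. *Cxcl10* runs from 156 in weak to 2739 in strong responders and *Socs1* from 36.6 to 241, whereas *Irf9*, *Tnf* and *Nfkbia* lie nearly on top of each other in the LP4 groups.

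The ligand was seen most often in strong responders. *Ifnb1* (ENSMUSG00000048806, chromosome 4, 88522025 to 88522774, minus strand), which encodes interferon beta, had 96 UMIs in 51 of the 4597 LP4 cells. The strong responders held 46 of these UMIs in 24 cells (5.23%, exact binomial 95% interval 3.38 to 7.68). No weak responder held any (0%, 0 to 0.80). With a floor of 3 UMIs over the weak group the log2 ratio was 4.19. Its 95% interval, taken from the counts without the floor, began at 3.84 and had no upper end. Of the 51 cells, 45 scored above the median of LP4, and in each of the 8 bins of cells between the ends (10 bins in order of score) from 1 to 10 cells held the transcript. The cells with *Ifnb1* had a median of 12474 UMIs, above that of the strong responders, and no cell held more than 8 *Ifnb1* UMIs. Ctrl had 2 and LP1 10 *Ifnb1* UMIs in all. None of the other 18 ligand genes on the list reached 20 UMIs in weak and strong responders together.

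The receptors and their kinases differed by less than 2-fold. *Ifnar1* stood at 198 CPM in Ctrl, 168 in LP1, 252 in weak and 326 in strong responders (log2 ratio 0.37, 0.26 to 0.47). *Ifnar2* stood at 392, 370, 584 and 501 (-0.22, -0.30 to -0.14; 0.10 with TMM scaling). *Jak1* stood at 221, 218, 274 and 280 (0.03), and *Tyk2* at 16.2, 17.1, 22.7 and 32.4 (0.51). *Jak2*, a kinase of the interferon gamma receptor, differed most, with 117, 127, 411 and 650 (0.66, 0.58 to 0.74). None of the 7 receptors and kinases tested passed 2-fold, and neither did most genes, as 4.8% of all genes tested were higher and 4.42% lower.

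Of the transcription factors downstream, *Irf7*, which amplifies interferon gene transcription, differed most. It stood at 102 CPM in Ctrl, 78.2 in LP1, 79.8 in weak and 248 in strong responders, a log2 ratio of 1.64 (1.48 to 1.80). Weak responders therefore held no more *Irf7* than Ctrl. *Stat2* stood at 28.9, 24.1, 195 and 320 (0.72, 0.60 to 0.83), so it was already above Ctrl in the weak responders. *Irf9*, the DNA-binding partner of STAT2, had 30.5, 24.7, 38.2 and 36.6 CPM, with an interval of the log2 ratio from -0.36 to 0.24. *Irf2* and *Irf8*, further factors of the IRF family, had log2 ratios of 1.53 and 1.26.

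Of 8 feedback inhibitors of interferon and cytokine signalling, 2 were at least 2 times higher in strong responders and 0 lower. Over all genes tested these shares were 4.8% and 4.42%. *Socs1*, which inhibits JAK kinases, stood at 1.70 CPM in Ctrl, 3.86 in LP1, 36.6 in weak and 241 in strong responders, a log2 ratio of 2.72 (2.51 to 2.94). *Usp18*, which removes ISG15 from proteins and blocks IFNAR2, stood at 18.0, 16.5, 101 and 290, a log2 ratio of 1.51 (1.37 to 1.66). *Socs3*, an inhibitor of the STAT3 pathway, stood at 52.3 CPM in Ctrl, 688 in weak and 789 in strong responders, a log2 ratio of 0.20. The phosphatases *Ptpn2*, *Ptpn1* and *Ptpn6*, which act on JAK and STAT proteins, had 0.34, -0.23 and -0.51, and *Cish* and *Pias1* had 0.25 and -0.09. The MHC class I presentation genes had a median of 0.76, with *Nlrc5*, their transcriptional activator, at 1.46, *Tap1*, the peptide transporter, at 1.31 and *B2m*, the light chain, at 0.60. Of the 15 that reached 20 CPM, 3 were at least 2 times higher, beside 4.8% of all genes. The nucleic acid sensors had a median of 1.00, led by *Ifih1* (MDA5, a sensor of double-stranded RNA) at 1.90.

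Of 8 interferon-linked chemokines 4 reached 20 CPM, of which 2 were at least 2 times higher in strong responders and 0 lower. Among all genes tested 4.8% were higher and 4.42% lower. *Cxcl10* (ENSMUSG00000034855, chromosome 5, 92346638 to 92348889, minus strand), which attracts T cells, stood at 19.7 CPM in Ctrl, 19.6 in LP1, 156 in weak and 2739 in strong responders, a log2 ratio of 4.13 (4.03 to 4.23). In cells thinned to 2000 UMIs, it was seen in 13.1% of weak responders (exact binomial 95% interval 10.1 to 16.5), in 83.2% of strong responders (79.5 to 86.5) and in 28.6% of the *S100a8*-rich cells (13.2 to 48.7). At the cells' own depth the shares in weak and strong responders were 30.3% and 91.9%. The weak responders' share thus lay below that of the *S100a8*-rich cells, with overlapping intervals. The *S100a8*-rich cells may express the gene themselves, so their share is no measure of free RNA alone. Whether the share in weak responders reflects expression or free RNA was not tested. *Ccl5*, another lymphocyte attractant, stood at 11.3 CPM in Ctrl, 10.1 in LP1, 121 in weak and 804 in strong responders (2.74, 2.62 to 2.86). *Ccl2* and *Ccl7*, monocyte attractants, had log2 ratios of -0.42 and 0.29. *Cxcl9*, which did not reach 20 CPM, ran the other way, with 0.113 CPM in Ctrl, 0 in LP1, 15.0 in weak and 2.98 in strong responders (-2.33, -3.26 to -1.50), but 1 cell held 77.6% of its UMIs.

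*Cd69*, an early activation antigen, stood at 10.2 CPM in Ctrl, 12.5 in LP1, 17.7 in weak and 189 in strong responders, a log2 ratio of 3.42 (3.12 to 3.74). *Il15ra*, which presents interleukin-15 to lymphocytes, stood at 7.43, 9.06, 24.1 and 185 (2.94, 2.68 to 3.21). *Ms4a4c*, a membrane protein of the MS4A family, stood at 8.45, 8.62, 10.2 and 142 (3.81), and *Trim30c* at 7.29, 6.16, 34.1 and 232 (2.77). *Gbp2b*, a further guanylate-binding protein, had 2.87. *Pde7b*, a cAMP phosphodiesterase, ran the other way against Ctrl: it stood at 259 CPM in Ctrl, 231 in LP1, 13.6 in weak and 108 in strong responders, a log2 ratio of 2.99 (2.64 to 3.36). Strong responders thus lay between weak responders and Ctrl for *Pde7b*. A transcript without a gene name, AW112010, lay outside the rule for named genes and was picked after its values were seen: it stood at 22.2 CPM in Ctrl, 25.7 in weak and 709 in strong responders, a log2 ratio of 4.79.

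The upstream sequences of 4 interferon-linked and 2 NF-kB-linked genes are shown because each held a match to the motif of its pathway (RefSeq, GRCm38.p6, the 250 bases before the gene start, 5′ to 3′ on the strand of the gene). Capitals mark matches to an ISRE core, GAAANNGAAA, or a kB core, GGGANTTTCC, on either strand. The score genes *Isg15* (chr4:156200819-156201068) and *Rsad2* (chr12:26456453-26456702), then *Cxcl10* (chr5:92348890-92349139) and *Socs1* (chr16:10785537-10785786), held ISRE matches, in *Isg15* and *Socs1* as overlapping runs of 3 and 2. *Nfkbia* (chr12:55492648-55492897) and *Cxcl1* (chr5:90890995-90891244) held a kB match. The windows of *Ifnb1*, *Tnf* and *Apoe* were searched too, held neither core and are not shown. Only exact matches to the cores were counted, so sites with other spacing or letters would be missed.
Isg15: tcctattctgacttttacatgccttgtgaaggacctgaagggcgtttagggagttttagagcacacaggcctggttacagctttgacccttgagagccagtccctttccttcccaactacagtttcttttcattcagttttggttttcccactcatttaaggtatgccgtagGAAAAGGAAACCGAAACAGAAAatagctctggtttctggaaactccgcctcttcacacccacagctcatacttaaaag
Rsad2: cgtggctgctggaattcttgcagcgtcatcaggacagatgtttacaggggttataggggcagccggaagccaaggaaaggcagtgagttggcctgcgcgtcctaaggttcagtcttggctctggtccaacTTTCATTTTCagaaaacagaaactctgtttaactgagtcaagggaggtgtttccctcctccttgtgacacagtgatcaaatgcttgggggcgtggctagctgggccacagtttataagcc
Cxcl10: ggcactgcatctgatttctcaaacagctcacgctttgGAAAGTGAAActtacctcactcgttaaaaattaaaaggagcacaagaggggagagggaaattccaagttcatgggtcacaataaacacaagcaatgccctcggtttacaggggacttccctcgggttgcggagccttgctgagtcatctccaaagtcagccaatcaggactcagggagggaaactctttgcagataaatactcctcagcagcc
Socs1: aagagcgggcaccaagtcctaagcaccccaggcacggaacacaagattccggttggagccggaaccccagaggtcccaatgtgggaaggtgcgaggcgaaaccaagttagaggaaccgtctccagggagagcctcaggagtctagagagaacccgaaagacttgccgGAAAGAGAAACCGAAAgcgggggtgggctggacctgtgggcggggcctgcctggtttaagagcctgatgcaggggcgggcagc
Nfkbia: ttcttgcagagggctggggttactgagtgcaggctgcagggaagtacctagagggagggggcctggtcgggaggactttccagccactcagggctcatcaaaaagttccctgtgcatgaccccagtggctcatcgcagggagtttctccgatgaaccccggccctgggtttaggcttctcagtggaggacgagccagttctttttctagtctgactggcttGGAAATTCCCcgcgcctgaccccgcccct
Cxcl1: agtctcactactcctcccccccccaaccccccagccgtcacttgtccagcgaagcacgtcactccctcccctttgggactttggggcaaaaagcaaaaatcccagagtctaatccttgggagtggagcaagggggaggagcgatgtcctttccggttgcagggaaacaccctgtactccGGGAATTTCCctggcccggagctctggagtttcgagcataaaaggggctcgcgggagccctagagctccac
Among the 4520 tested genes with a promoter entry (250 bases before to 50 after the start), 4.78% held the ISRE core, and among all 27025 genes with an entry 3.99%. Of the 213 matched genes at least 2 times higher in strong responders 41 held it (19.2%), of the 192 lower genes 4 (2.08%), and of the 4115 between 171 (4.16%). Of the 65 matched genes on the 6 interferon lists 35 held it (53.8%). Of the 161 matched higher genes on no interferon list, 12 held it (7.45%). The kB core was rarer, in 0.597% of tested genes, 1.88% of the higher and 0.521% of the lower genes, and 6 of 26 matched NF-kB inflammatory genes held it.

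Most genes that were high in LP4 were above Ctrl in the weak responders too. Of 215 genes at least 4 times higher in LP4 than in Ctrl, a choice that counted the weak responders among the LP4 cells, 204 were at least 2 times and 136 at least 4 times higher than Ctrl in the weak responders. Over all 6247 genes with at least 20 CPM in Ctrl or LP4 these shares were 11.1% and 2.45%. Of the 51 on an interferon list (the 6 lists and those of sensors, signalling, presentation and chemokines), 22 were at least 4 times higher, with a median log2 ratio to Ctrl of 1.88 in weak and 3.95 in strong responders. Of the 164 on none, 114 were, with medians of 2.38 and 2.93. Genes on no list differed between the groups too. Of the 51 on a list 43, and of the 164 on none 63, were at least 2 times higher in strong than in weak responders. The lower counts were 0 and 3, beside 4.8% higher and 4.42% lower among all 5629 genes tested. The choice of these genes counted the strong responders as well. Of the 270 higher genes, 65 were on an interferon list and 205 on none. Of 103 genes at least 4 times lower in LP4 than in Ctrl, none of them on an interferon list, 102 were at least 2 times and 74 at least 4 times lower in the weak responders, beside 7.54% and 1.38% of all genes. Of the 78 measured interferon-stimulated genes, 47 were at least 2 times higher than Ctrl in weak responders and 71 in strong responders. Among the 6247 genes these shares were 11.1% and 13%, but the filters differ. The 78 were measured at 20 UMIs over weak and strong responders, and 8 of them passed through the strong responders. The 71 therefore does not compare directly with the 13%. Ctrl is a separate library of lower depth, with a median of 5202 UMIs per cell.

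The NF-kB inflammatory genes, which TLR2 signalling induces directly, shifted less than the interferon-stimulated genes and not all in 1 direction. Over 32 measured members the median log2 ratio was 0.17, beside -0.22 over all genes, with 19 members above 0 and 13 below. Of the 31 tested, 4 were at least 2 times higher in strong responders and 0 lower, beside 4.8% and 4.42% of all genes. *Tnf*, which encodes tumour necrosis factor, stood at 841 CPM in Ctrl, 1120 in LP1, 270 in weak and 249 in strong responders (-0.12, -0.23 to -0.01; 0.20 with TMM scaling). *Nfkbia*, the inhibitor that NF-kB itself induces, stood at 1201, 1927, 1171 and 1135 (-0.05, -0.10 to 0.01). *Il1b* stood at 392, 449, 1195 and 1362 (0.19), and *Sod2*, the mitochondrial superoxide dismutase, at 104, 221, 897 and 991 (0.14). Weak and strong responders therefore held nearly the same level of these 4 transcripts, on a log2 scale on which *Cxcl10* differed by 4.13. These 4 do not stand for all inflammatory genes, as *Acod1* had 0.91 and *Il1rn* 0.73.

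The 4 NF-kB members past 2-fold were *Il6*, *Nos2*, *Cd40* and *Ccl4*. *Il6*, an inflammatory cytokine, stood at 1.07 CPM in Ctrl, 1.45 in LP1, 9.64 in weak and 82.4 in strong responders (3.1, 2.68 to 3.53), and 26 weak and 125 strong responders held it. *Nos2*, inducible nitric oxide synthase, stood at 0.396, 0.153, 105 and 392 (1.90, 1.77 to 2.04). *Cd40*, a costimulatory receptor, had 1.36, and *Ccl4*, a chemokine, 1.33. The neutrophil-attracting chemokines had a median of -0.23 (0.09 with TMM scaling), beside -0.22 over all genes. Their median was -0.52 with ends of 20% and -0.67 with the ends taken inside clusters, beside -0.15 and -0.17 over all genes. With the ends taken inside bins of UMIs per cell it was -0.46, beside -0.19. With *Rsad2*, *Isg15* and *Cmpk2* as the score it was 0.06, beside -0.20. Of 6 measured, 2 lay above 0 and 4 below. None of the 5 tested passed 2-fold, beside 4.8% higher and 4.42% lower among all genes. *Cxcl1* stood at 625 CPM in Ctrl, 1152 in LP1, 1179 in weak and 617 in strong responders (-0.93, -1.0 to -0.87). *Cxcl2* had -0.51, while *Pf4* had 0.49. The TLR2 pathway had a median of -0.04, with *Tlr2* at 324 CPM in weak and 337 in strong responders, *Myd88* at 50.9 and 69.4, and *Cd14*, a co-receptor, at 1467 and 1859. Of its 15 members that reached 20 CPM, none passed 2-fold, beside 4.8% higher and 4.42% lower among all genes.

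Along the 10 bins of LP4 cells ranked by score, these genes followed different courses. *Cxcl10* was higher in each bin than in the one before, with 156, 293, 422, 536, 686, 790, 1094, 1303, 1755 and 2739 CPM. *Socs1* did likewise, from 36.6 through 76.3 in the sixth bin to 241. *Nos2* went from 105 to 392, while *Tnf* kept between 243 and 310 CPM. *Il1b* was high at both ends, with 1195 in the first, 758 in the fifth and 1362 in the last bin. *Cxcl1* stood at 1179 in the first, 483 in the ninth and 617 in the last bin. *Cxcl2* stood at 2427 in the first, 1121 in the sixth and 1706 in the last bin, and *Pf4* at 2122, 1998 and 2983. *Apoe*, a lipid carrier, lay between 110 and 198 CPM in the first 9 bins and at 554 in the last.

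**Figure D4:**
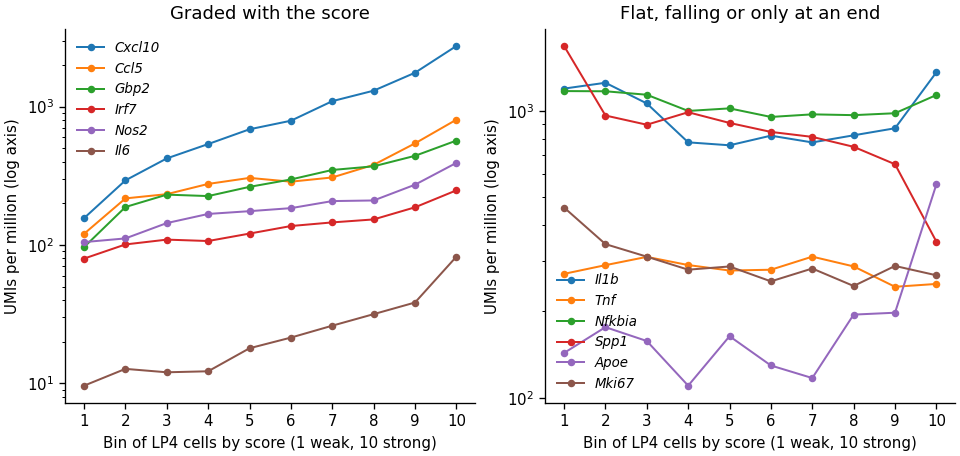
Level of 12 genes (UMIs per 1000000 UMIs outside the score genes, y axis, log scale) in the 10 bins of LP4 cells ranked by score (x axis, 1 weak to 10 strong). *Cxcl10*, *Gbp2*, *Irf7*, *Nos2* and *Il6* climb across the range on the left, *Tnf* and *Nfkbia* stay level on the right, *Spp1* falls and *Apoe* stands up only in the last bin.

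A list of 16 macrophage genes around *Apoe* and *Selenop* was put together from some genes that the study picked on these same libraries and from other macrophage genes, so its direction is not independent evidence. Of its 15 members that reached 20 CPM, 9 were at least 2 times higher in strong responders and 0 lower. Among all genes tested 4.8% were higher and 4.42% lower. The list had a median of 1.2 over all 16. *Cd86*, a costimulatory ligand, stood at 165 CPM in Ctrl, 126 in LP1, 42.1 in weak and 243 in strong responders (2.53, 2.32 to 2.73). *Apoe* stood at 352, 230, 143 and 554 (1.95, 1.84 to 2.07), and the complement genes *C1qa* and *C1qb* had 1.95 and 1.94. In Ctrl, all 4 of these stood above the level of the weak responders. The groups also differed in cluster: 65.1% of the strong and 38.8% of the weak responders fell in 1 of the 4 clusters, and *Apoe* was among its leading genes. With the ends taken inside clusters the median of the list was 0.73 and *Apoe* had 1.12. A list of 8 genes around *Fgf13*, *Ccnd1* and *Lpl*, again in part picked by the study on these libraries, lay on the other side, with a median of -0.45 and all 8 below 0, of which *Actb* turns positive under TMM scaling (0.06). *Lpl*, lipoprotein lipase, had -0.99.

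The general macrophage markers had a median of 0.15. *Csf1r*, the M-CSF receptor, stood at 417 CPM in weak and 527 in strong responders, *Adgre1* (F4/80) at 243 and 257, and *Lyz2*, lysozyme, at 8692 and 12360, so both groups expressed the macrophage markers. *Fcgr1*, an IgG receptor, was 1.42 higher on the log2 scale. The dendritic cell markers split: of 6 measured, 4 lay above 0 and 2 below, from -3.14 for *Ciita* to 1.76 for *H2-Ab1*. Among them, the MHC class II genes *H2-Ab1*, *H2-Aa* and *Cd74* had 1.76, 1.31 and 1.04. Cells with at least 0.2% of UMIs in MHC class II genes were 6 weak responders and 19 strong responders. Without cells rich in cycling, MHC class II or stromal genes the same 3 genes had -0.88, -0.20 and -0.16.

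Of the 249 genes lower in strong responders, 10 were on the cell cycle lists. Of the 15 named genes that were lowest, *Hist1h1b*, *Hist1h2ap*, *Hist1h2ae* and *Hist1h1e* encode histones, *Top2a* the DNA topoisomerase of mitosis, *Smc2* and *Smc4* condensin subunits, *Stmn1* a microtubule regulator and *Tmpo* a nuclear lamina protein. *Hist1h1b* stood at 122 CPM in Ctrl, 176 in LP1, 383 in weak and 6.39 in strong responders (-5.91, -6.48 to -5.39). *Top2a* stood at 68.3, 77.4, 164 and 8.09 (-4.34, -4.85 to -3.87). The G2 and mitosis genes had a median of -4.20 and the S phase genes one of -2.67, and 9 of 10 and 1 of 4 of those tested were at least 2 times lower, beside 4.42% of all genes. Histone genes share sequence within clusters, and their counts may be divided among copies.

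Cycling cells were few but uneven between the ends. Cells with at least 0.2% of UMIs in S phase and mitosis genes other than *Mki67* and *Pcna* were 60 of the 459 weak responders (13.1%, exact binomial 95% interval 10.1 to 16.5), 1 strong responder (0.218%, 0.00552 to 1.21) and 150 of the cells between (4.08%, 3.46 to 4.77). Their median score was 0.464%. The 2 genes left out of this count differed least on their lists. *Mki67* stood at 460 CPM in weak and 267 in strong responders (-0.78), and *Pcna* at 257 and 162 (-0.67). With cells rich in cycling, MHC class II or stromal genes left out and the rest ranked again, 92 genes were at least 2 times lower, *Top2a* had -2.03 and *Hist1h1b* -2.10. With the ends taken inside clusters, 77 genes were lower, and these 2 had -0.21 and -0.12. Depth moved with this count too: with the ends taken inside bins of UMIs per cell, where weak and strong responders had medians of 11864 and 11858 UMIs, 148 genes were lower. The part of cycling or depth in the difference of interferon scores was not tested.

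*Csmd1*, a large membrane protein gene with the lowest log2 ratio of all named genes (-7.81), had 99.4% of its UMIs in 5 cells. Without cells rich in cycling, MHC class II or stromal genes it stood at -0.46. All 8 stromal markers, measured at 20 UMIs, were at least 2 times lower in strong responders, and between 97% and 100% of the UMIs of each were in 5 cells. Of the 8, 1 reached 20 CPM and was lower, beside 4.42% of all genes tested. Another limit is that 4 had no UMI in strong responders, so their ratios rest on the floor of 3. Only 4 weak responders and no strong responder reached 0.05% of UMIs in stromal genes, so these 9 genes describe a few cells rather than the group.

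Other named genes were lower in strong responders too. *Spp1*, osteopontin, stood at 398 CPM in Ctrl, 724 in LP1, 1682 in weak and 350 in strong responders (-2.27, -2.34 to -2.19), with 38.3% of its UMIs in 5 cells, and stood at 963 CPM in the second and 651 in the ninth bin. *Ccnd1*, cyclin D1, stood at 105, 153, 116 and 27.7 (-2.07, -2.35 to -1.79), *Fn1*, fibronectin, at 97.5, 101, 137 and 30.7 (-2.16), and *Cxcl14*, a chemokine, at 126, 132, 154 and 40.9 (-1.91). Without cells rich in cycling, MHC class II or stromal genes these 4 had -1.28, -1.66, -1.86 and -1.60. *Top2a* still had -2.03 in that setting, so it did not remove all cycling and cannot show a difference outside dividing cells. With the ends taken inside clusters *Spp1*, *Fn1* and *Cxcl14* had -1.71, -1.31 and -1.34. *Ccnd1* lost its 2-fold difference with the ends taken inside clusters and with ends of 20%, at -0.87 in both. With ends of 50% none of these 4 genes kept it: *Spp1* had -0.61, *Ccnd1* -0.66, *Fn1* -0.25 and *Cxcl14* -0.66. *Rgs1*, which dampens chemokine receptor signals, had -2.02 (-0.73 with ends of 50%), but 55.5% of its UMIs were in 5 cells.

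Metabolic lists moved less. The 18 glycolysis genes had a median of -0.57, beside -0.22 over all genes. Of 17 tested 1 was at least 2 times higher and 2 lower, beside 4.8% and 4.42% of all genes. *Eno1*, enolase, stood at 252 CPM in weak and 111 in strong responders (-1.18, -1.33 to -1.04), *Tpi1*, triosephosphate isomerase, at 239 and 115 (-1.05), and *Hk3*, a hexokinase, at 81.1 and 179 (1.14). The stress genes had a median of -0.66, with *Hmox1*, heme oxygenase, at 272 CPM in weak and 115 in strong responders (-1.25). The sterol genes had a median of 0.02, with none of 14 tested past 2-fold, and *Ch25h*, which makes 25-hydroxycholesterol, had 0.52. Mitochondrial transcripts had a median of -0.30.

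Of the 18 immediate early genes, which are transcribed within minutes of a signal, 7 reached 20 CPM. None of the 7 passed 2-fold in either direction, beside 4.8% higher and 4.42% lower among all genes. Over all 18 the median was -0.38, beside -0.22 over all genes tested. *Fos*, which did not reach 20 CPM over weak and strong responders, stood at 713 CPM in Ctrl, 465 in LP1, 27.9 in weak and 9.58 in strong responders (-1.54, -2.05 to -1.05), so both groups lay far below Ctrl. *Junb*, its dimer partner, stood at 606, 1233, 600 and 599. Among 8 measured anti-inflammatory and alternative activation genes the median was 0.55. Of the 7 that reached 20 CPM, 2 were at least 2 times higher and 0 lower, beside 4.8% and 4.42% of all genes. *Il10*, an anti-inflammatory cytokine, stood at 101 CPM in Ctrl, 105 in LP1, 185 in weak and 201 in strong responders (0.12, -0.01 to 0.24), while *Il13ra1*, an interleukin-13 receptor chain, stood at 7.37, 9.23, 34.8 and 95.2 (1.45). The 16 genes of a list of lysosomal genes and *Lgals3* had a median of 0.10 and none passed 2-fold.

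Of the 11 neutrophil markers, *S100a8* and *S100a9* had served to leave out cells, so low levels of these markers follow in part from the choice of cells. Their summed share of a cell's UMIs had a median of 0.0228% in weak and 0.0285% in strong responders, with highest cells at 1.24% and 0.243%. Of the 11 markers 3 reached 20 CPM, of which 1 was at least 2 times higher and 0 lower, beside 4.8% and 4.42% of all genes. *Mpo* and *Elane*, granule enzymes that define the lineage, had no UMI in strong responders, and 99.1% of the *Mpo* UMIs and 97.4% of the *Elane* UMIs of the weak responders came from 1 cell each. None of the 8 lymphocyte and mast cell markers reached 20 UMIs in both groups together, and their share was at most 0.0159% in any weak and 0.0131% in any strong responder. The summed share of the dendritic cell markers was 0 in the median cell of either group and at most 2.06% and 2.04%.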

How the data were processed

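Single-cell 3′ RNA-seq of BMDMs was analysed from the raw UMI count matrices that the authors deposited, 1 per condition and made with Cell Ranger 7.1.0 on mm10 per the file headers. These are counts per gene and barcode for barcodes called as cells. Barcodes were kept with over 500 UMIs, over 500 genes, under 5% mitochondrial UMIs, at least 2000 UMIs and under 1% *S100a8* plus *S100a9*. Doublets were not removed in the main analysis. LP4 totalled 64787139 UMIs over 5039 barcodes, Ctrl 35749924 and LP1 52773906. Between libraries 10, 7 and 4 barcodes were shared.

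UMIs were summed over weak and over strong responders (Python 3.11.15, numpy 2.4.6, scipy 1.17.1) and expressed per 1000000 UMIs outside the score genes. A gene was tested at 20 CPM or more in both groups together and called at a fold of 2, and list members were measured at 20 UMIs or more. Intervals are 95% exact conditional binomial intervals for ratios and exact binomial intervals for shares, and a gene with 0 UMIs in a group was set to a floor of 3. Named genes are the 15 with the largest log2 ratio each way at 50 CPM or more, without mitochondrial, ribosomal, unnamed and score genes, plus 11 pathway genes, and further list members serve as examples. The members and the gene lists were chosen with earlier results of these data known. The scripts were tested on simulated data.

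Alternatives changed the share of cells taken, depth, score genes, splitting of UMIs, clusters (igraph 0.11.9, leidenalg 0.10.2), other cell types, likely doublets (share of simulated pairs among neighbours), mitochondrial limit, scaling (TMM of edgeR 4.0.16) and filters. Gene positions are GENCODE vM21 and promoters RefSeq, both GRCm38. Because each condition is 1 library, no test was run. Some list members are genes that the study picked on these libraries, and no value of its analyses was used. The result for 1 pathway gene on the list is not reported here.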

Additional observations from a re-analysis of the deposited data

How the results depend on the processing

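Against 270 genes at least 2 times higher and 249 lower in strong responders, the ends of 5% gave 364 and 587, of 20% 152 and 69, and of 50% 28 and 11. TMM gave 432 and 94, median of ratios 445 and 90, a fold of 1.5 511 and 1037, and no minimum CPM with at least 20 UMIs 431 and 1672. The lower count was 74 at 50 CPM, 148 within depth bins, 77 within clusters, 92 without cells rich in cycling, MHC class II or stromal genes and 149 as the mean of cell shares. The calls were 52.0% higher in the main setting and 82.1% under TMM.

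The median of the interferon-stimulated genes, 1.41, was 1.75 with ends of 5%, 1.06 with 20%, 0.54 with 50%, 1.27 within clusters, 1.73 under TMM and 1.75 under median of ratios, and above 0 under every alternative run. The median of the NF-kB genes, 0.17, was 0.044 with 20%, -0.0084 with 50%, 0.064 within depth bins, 0.067 with *Ifit1*, *Ifit2* and *Ifit3* as the score, -0.078 within clusters, 0.10 without the other cells, 0.49 under TMM, 0.51 under median of ratios and 0.069 as the mean of cell shares. It changed sign with ends of 50% and within clusters. The causes of these moves were not tested.

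Of the 35 named genes past 2-fold, each under 17 alternatives (595 values), 594 values kept their sign and 563 their 2-fold difference. The exception in sign was *Csmd1*, at 1.83 with *Ifit1*, *Ifit2* and *Ifit3* as the score. Most of these genes were chosen for their large ratios in these cells, and the alternatives reuse the same library. Such counts are therefore no independent evidence. Leaving out genes with most UMIs in 5 cells, an alternative chosen after seeing the data, gave 270 and 244. Genes with at least 20 CPM in Ctrl, likewise chosen after seeing the data, gave 167 and 370, a median of 1.15 for the interferon-stimulated genes and 0.17 for the NF-kB genes. No paired analysis was possible because each condition is 1 library. Low counts limit *Gbp4* and *Ifnb1* in weak responders, and other libraries of the same design were not analysed here.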
